A study of Mus musculus with 78 samples.

Results

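Total RNA was compared between mouse CD8+ T cells kept for 3 h with Torin1 and cells kept for 3 h with DMSO, its solvent control. The libraries were chosen by their labels alone, as the total RNA (input) libraries of the drug experiment that carry the treatment Torin or DMSO, and every gene of the deposited count table was considered. They were 6 of the 60 libraries in that table, 3 per group, numbered replicate 1, 3 and 4 in both groups. All were primary CD8+ T cells isolated from C57BL/6J spleen and lymph node and used on day 3 of activation. The same experiment held 3 libraries each of halofuginone, an inhibitor of prolyl-tRNA synthetase, and of 4EGI-1, a compound that disrupts the binding of eIF4E to eIF4G, and a polysome library from each lysate. A second experiment removed 1 nutrient for 3 h: glucose, glutamine, methionine, arginine or the branched-chain amino acids (BCAA). The concentration of Torin1, the ages of the mice and the origin of each replicate (separate cultures, separate mice or neither) are not given in the sources used here. The p-values therefore measure only the spread between these libraries, which may be technical.

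mTOR is a protein kinase that works in 2 complexes, mTORC1 and mTORC2. mTORC1 is active when growth factors and amino acids are plentiful and drives protein, nucleotide and lipid synthesis while holding back autophagy and lysosome formation. mTORC2 phosphorylates the kinase AKT, which keeps FOXO transcription factors out of the nucleus. Torin1 binds the ATP site of mTOR and blocks both complexes. In CD8+ T cells, strong mTOR signalling accompanies activation and effector function, and the trafficking and survival genes of naive and memory cells, several of them FOXO1 targets, are low in activated cells.

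Total counts ran from 17506526 to 18253561 in Torin1 libraries and from 20152972 to 21291474 in DMSO libraries. Mitochondrial entries took 2.91 to 3.93% of counts with Torin1 and 2.33 to 3.18% with DMSO. Replicates of each group differed by more than sampling noise (chi-square per degree of freedom 7.58 to 33.2), so all were counted as separate libraries. In a principal component analysis of the 12 drug libraries, the second component (17.8% of the variance) set Torin1 (20.23 to 24.23) apart from DMSO (-23.07 to -14.2). The labelled cell type was checked against 12 CD8 T cell markers of a list of 13, whose summed level was 4060 to 4460 CPM (read counts scaled to library size) in DMSO and 4300 to 4630 in Torin1. B cell markers in the table summed to 113 to 123 CPM in DMSO and 140 to 143 in Torin1, over 4 of 10 listed genes, and Ighm, the immunoglobulin heavy chain, rose by 0.32 ± 0.07 on the log2 scale. Cd79a, a subunit of the B cell receptor, did not exceed 0.197 CPM in any of the 6 libraries. CD4 T cell markers (3 of 6: Zbtb7b, Ctla4, Foxp3) summed to 707 to 838 and 994 to 1190 CPM. Nearly all of that sum was Ctla4, at 694 to 826 CPM in DMSO and 983 to 1180 in Torin1. Zbtb7b went the other way, from 11.5 to 12.9 CPM in DMSO to 5.92 to 7.87 in Torin1. Foxp3 did not exceed 2.76 CPM, and Cd4 itself was not in the count table. Markers of NK and innate T cells (3 of 9: Eomes, Trdc and Trdv4) summed to between 17.8 and 26.8 CPM. Most of that sum was Eomes, at 13.5 to 23.2 CPM. Ncr1, Klrb1c, Klra8, Klra4 and Klre1 were not in the count table, so the sum says little about NK cells. The single myeloid marker of 15 stayed between 3.72 and 8.0 CPM. None of these markers was at 0 in a whole group, and the other listed markers were not analysed here. The part of such cells in any result was not tested. In bulk RNA, fewer cells of a type and less RNA per cell cannot be told apart.

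Torin1 changed the level of 3343 of 12535 genes tested, 1671 upward and 1672 downward (edgeR's quasi-likelihood test with Benjamini-Hochberg adjusted p under 0.05, the rule for "rose" and "fell" throughout). That is 26.7% of genes tested, 13.3% in each direction, and these percentages are the background for every gene group below. The median log2 fold change over all genes was 0.01. In 3218 of the 3343 genes (96.3%) the 3 Torin1 libraries lay wholly above or below the 3 DMSO libraries. Without regard to the test, groups did not overlap in 19.8% of genes on the higher side and 19.6% on the lower side. Most changes were small. The median change of the genes that rose was 0.47 on the log2 scale, and 205 of them (12.3%) rose by at least 1. The median of those that fell was -0.42, and 74 (4.43%) fell by at least 1. Large changes were therefore more often increases than decreases, 205 against 74. Values are relative to the other genes of a library, so a change shared by all genes is not seen.

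**Figure D1:**
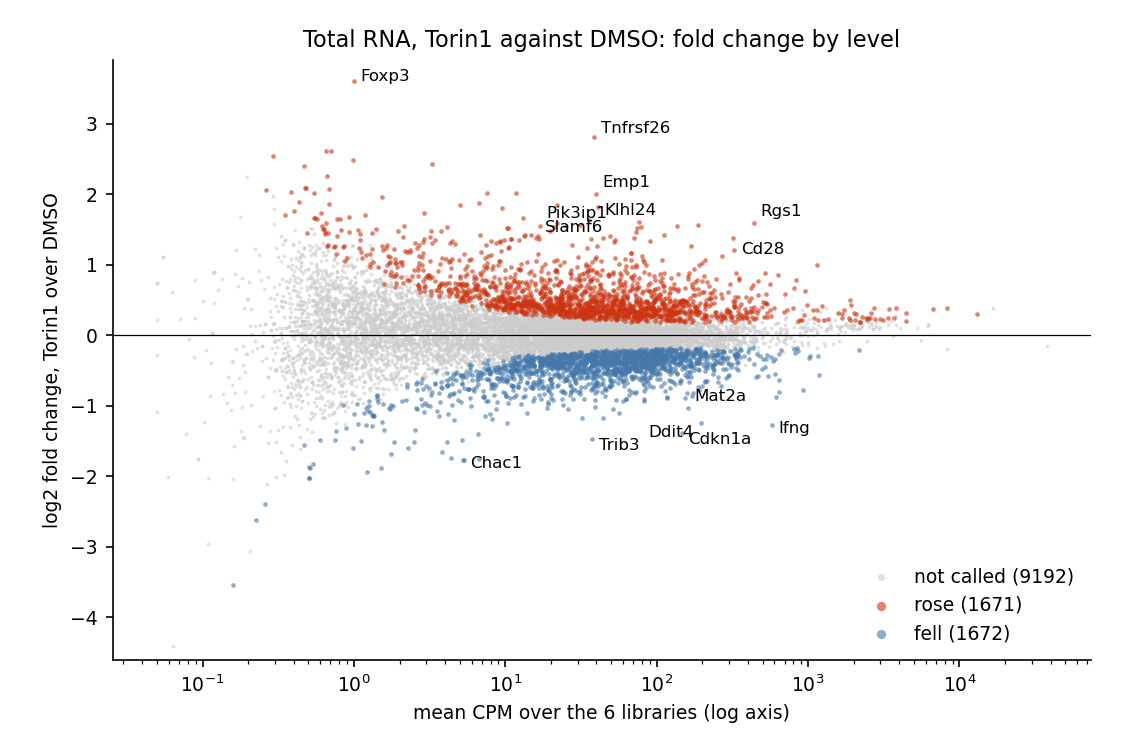
Log2 fold change (Torin1 over DMSO, total RNA) of each of the 12535 genes against its mean level in CPM on a log axis, with levels under 0.05 CPM drawn at 0.05. Coloured points are the 1671 genes that rose and the 1672 that fell, and 14 genes are named, among them Tnfrsf26 (2.81) and Chac1 (-1.77). Foxp3 (3.60) lies above Tnfrsf26, at a low level.

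The upper end of the response held surface proteins of the TNF superfamily and an adhesion molecule beside intracellular regulators of signalling. Tnfrsf26 (ENSMUSG00000045362.9), a member of the TNF receptor family, stood at 10.2, 8.68 and 10.1 CPM in DMSO and at 66.2, 68.7 and 68.9 CPM in Torin1 (replicates 1, 3 and 4, the order used for all triplets). The groups were far apart and the Torin1 libraries nearly equal, with a log2 fold change of 2.81 ± 0.09 (standard error of the fit; n = 3 libraries per group; edgeR adjusted p = 3.4e-12). Its neighbour in family, Tnfrsf23, rose from a mean of 1.03 to 5.53 CPM (2.42 ± 0.29). Emp1, a tetraspan membrane protein, measured 12.4, 15.1 and 20.2 CPM in DMSO and 65.0, 61.6 and 63.8 in Torin1 (1.99 ± 0.16, adjusted p = 1.6e-07). Fgl2, a secreted fibrinogen-like protein with immunosuppressive activity, measured 5.18, 5.02 and 3.75 against 21.3, 17.5 and 17.7 CPM (2.02 ± 0.14). For both genes every Torin1 library was above every DMSO library. Tnfsf4, the OX40 ligand, rose by 1.81 ± 0.14 and Selp, the adhesion molecule P-selectin, by 1.64 ± 0.14.

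Intracellular regulators were at the upper end as well. Klhl24, a substrate adaptor of a cullin ubiquitin ligase, was at 19.8, 14.9 and 19.4 CPM in DMSO and at 60.4, 66.1 and 64.6 in Torin1 (1.82 ± 0.11, adjusted p = 1.7e-08). Rgs1, which shortens signalling of G proteins behind chemokine receptors, was at 240.0, 174.9 and 240.7 CPM in DMSO and at 649.6, 589.7 and 726.0 in Torin1 (1.58 ± 0.11, adjusted p = 6.7e-08). The lowest Torin1 library of Rgs1 was far above the highest DMSO library. Trib2, a pseudokinase, rose by 1.85 ± 0.20, Abca1, a cholesterol exporter, by 1.87 ± 0.19, and Ahr, the aryl hydrocarbon receptor, by 1.85 ± 0.28. The remaining genes of the 15 with the highest fold change (among called genes with at least 5 CPM in the higher group and no overlap) were Tmem140 (2.01 ± 0.18), Gcnt4 (1.66 ± 0.13), Gbp5 (1.60 ± 0.17) and Filip1l (1.59 ± 0.11).

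The 15 genes at the lower end under the same rule held 4 targets of the integrated stress response, which are described with that pathway below, and genes for growth arrest, oxidative stress and growth factors. Cdkn1a, the cyclin-dependent kinase inhibitor p21, was at 234.0, 193.2 and 209.3 CPM in DMSO and at 83.7, 77.3 and 81.1 in Torin1 (-1.39 ± 0.09, adjusted p = 4.7e-08). Ddit4 (REDD1), a stress-induced inhibitor of mTORC1, was at 282.3, 269.2 and 273.6 CPM against 114.6, 113.0 and 118.9 (-1.25 ± 0.09, adjusted p = 1.1e-07). Neither gene had a Torin1 library near the DMSO range. Hmox1, which degrades haem, fell by 1.41 ± 0.17 on the log2 scale, Srxn1, which repairs oxidised peroxiredoxins, by 1.19 ± 0.14, and Pdgfb, a growth factor chain, by 1.25 ± 0.15. The others at this end were Ahdc1 (-1.76 ± 0.18), Rrad, a small GTPase (-1.75 ± 0.23), Nol4l (-1.66 ± 0.22), Ddn (-1.51 ± 0.19), Ifng and Fnip2, both treated below.

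**Figure D2:**
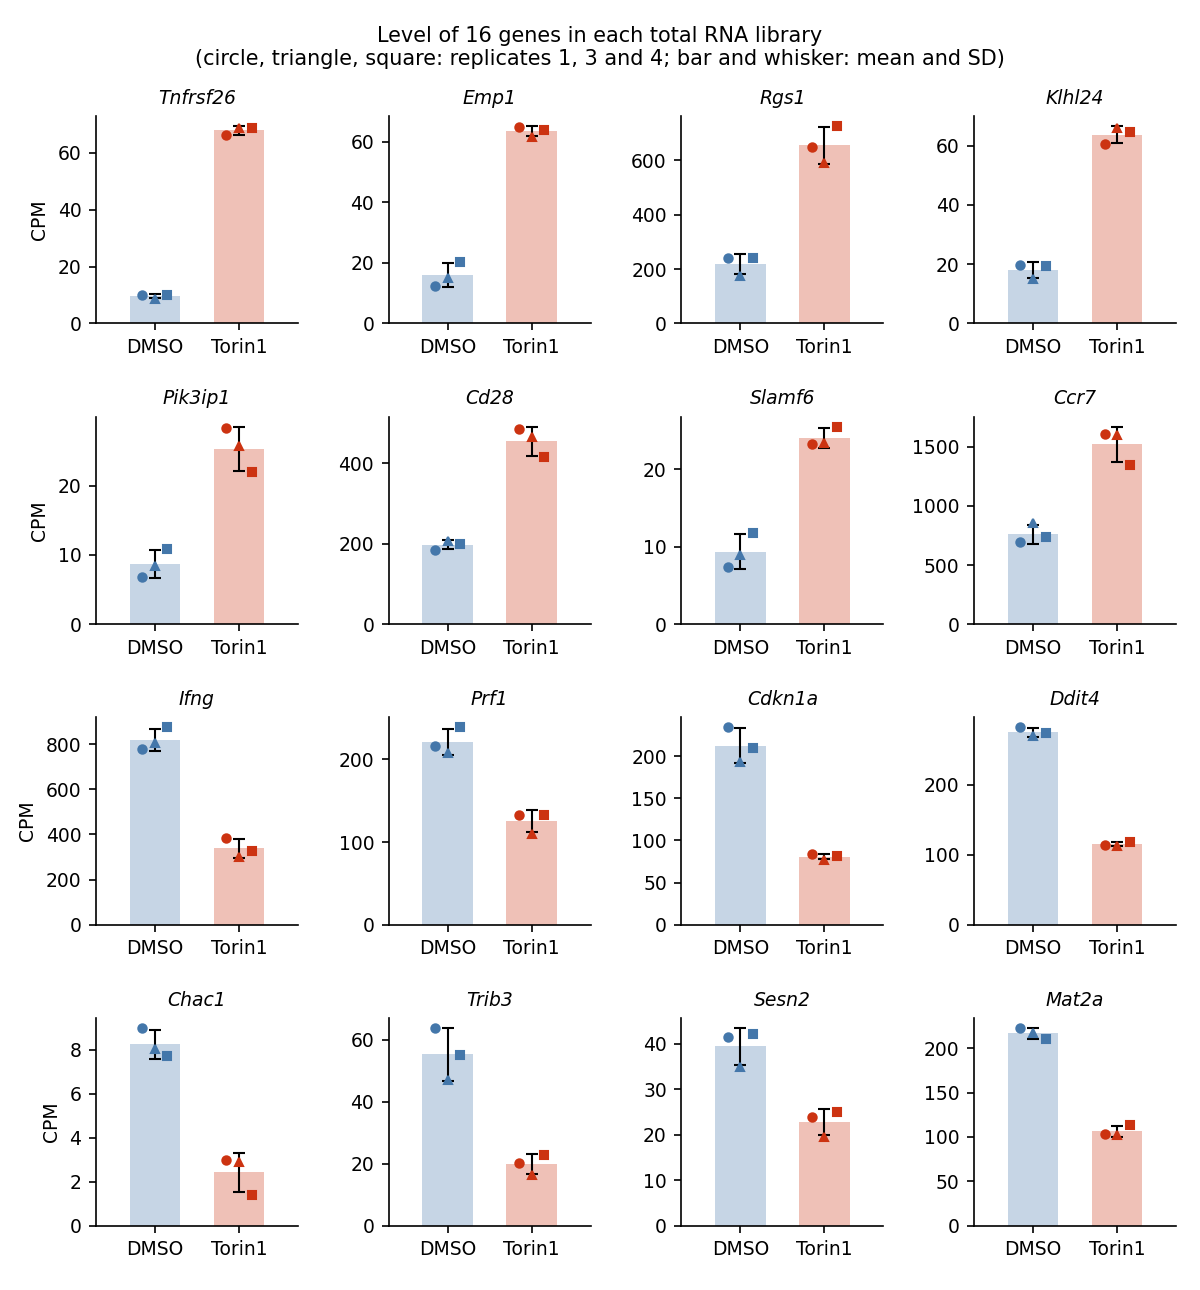
Level in CPM of 16 genes in each total RNA library (circle, triangle and square for replicates 1, 3 and 4), with bars at the mean of 3 libraries and whiskers of 1 SD, each panel on its own axis from 0. In each panel the 3 Torin1 libraries lie on one side of the 3 DMSO libraries, above for Tnfrsf26, Emp1, Rgs1, Klhl24, Pik3ip1, Cd28, Slamf6 and Ccr7 and below for Ifng, Prf1, Cdkn1a, Ddit4, Chac1, Trib3, Sesn2 and Mat2a.

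**Figure D3:**
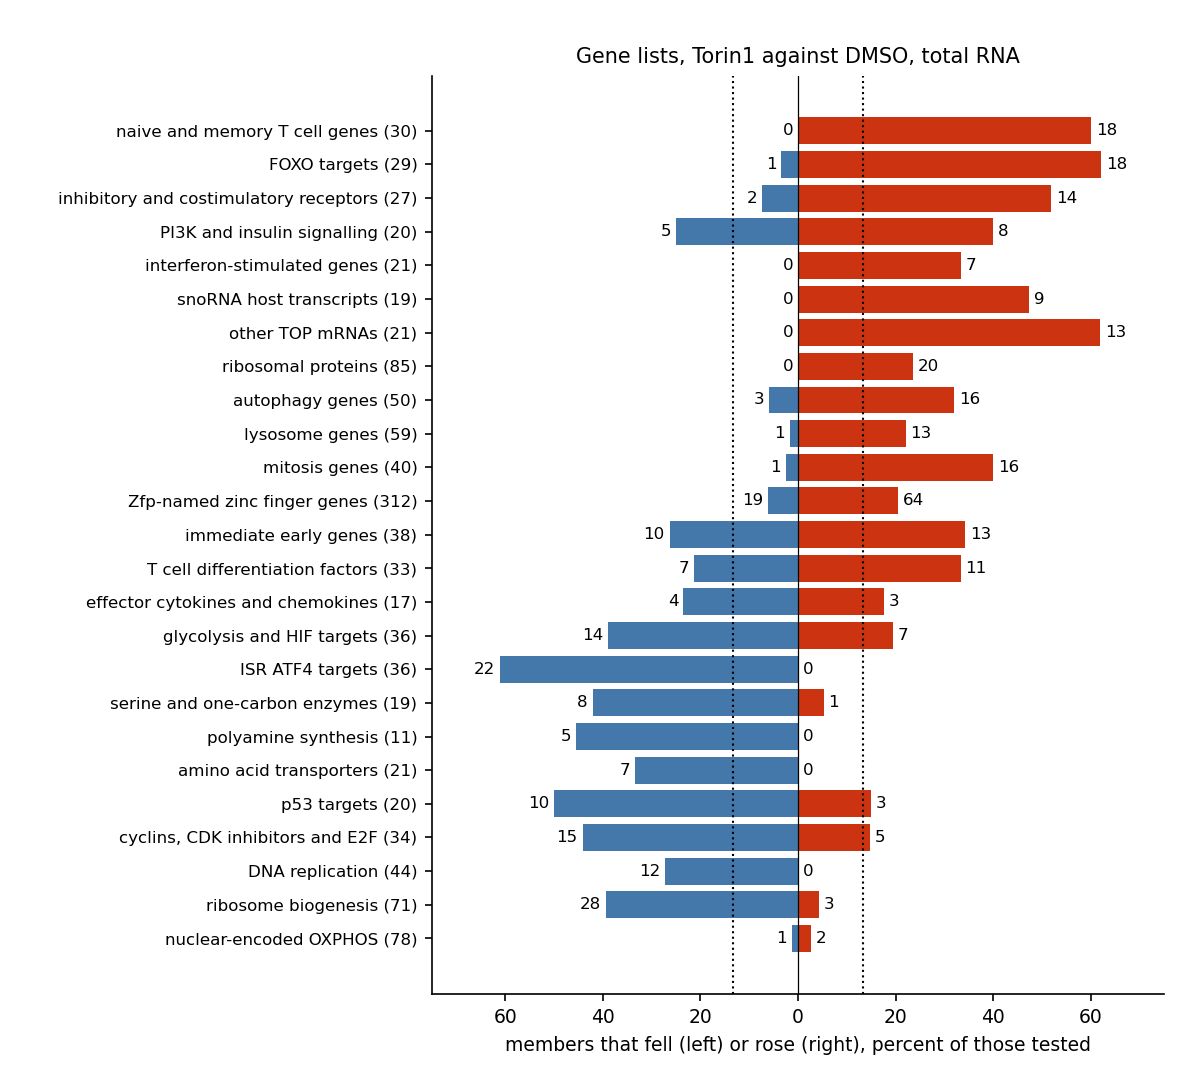
Percentage of the tested members of 25 gene lists that rose (to the right) and fell (to the left) with Torin1, with dotted lines at 13.3%, the share of all genes tested in each direction. Targets of the integrated stress response fell in 22 of 36 members and rose in 0, while naive and memory T cell genes rose in 18 of 30 and fell in 0.

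Single genes of the mTOR pathway itself changed in both directions. Of 45 genes for mTORC1 and its regulators, 8 rose (5 without Torin1 replicate 4) and 7 fell, with a median of 0.04. Both shares are close to the 13.3% of all genes in each direction, so the list as a whole did not stand out. Besides Ddit4, Fnip2, a partner of folliculin in amino acid sensing, fell by 1.21 ± 0.21 on the log2 scale, while its paralog Fnip1 rose by 0.96 ± 0.10. Sesn3, a member of the sestrin family of mTORC1 inhibitors, was at 122.7, 113.1 and 112.0 CPM in DMSO and at 217.4, 204.9 and 216.5 in Torin1 (0.88 ± 0.07, adjusted p = 1.1e-07). Its paralog Sesn2, an ATF4 target, went the other way, from 41.4, 34.8 and 42.0 to 23.9, 19.4 and 24.9 CPM (-0.79 ± 0.10, adjusted p = 1.3e-05). The ranges of both sestrins were separate between groups. Among 21 mTORC1 substrates 6 rose and 3 fell. Tfeb, the transcription factor of lysosomal genes, measured 10.4, 8.88 and 10.1 CPM in DMSO and 5.77, 4.95 and 4.55 in Torin1 (-0.94 ± 0.16). Grb10, an adaptor that dampens insulin signalling, rose by 1.17 ± 0.25, Lpin1, a phosphatidate phosphatase, by 0.66 ± 0.13, and Maf1, the repressor of RNA polymerase III, by 0.50 ± 0.07.

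Of 20 PI3K and insulin signalling genes 8 rose and 5 fell (3 without Torin1 replicate 1), with a median of 0.16. Pik3ip1, a membrane inhibitor of PI3K, was at 6.80, 8.38 and 10.8 CPM in DMSO and at 28.3, 25.7 and 22.0 in Torin1 (1.55 ± 0.14, adjusted p = 6.8e-07), so that the lowest Torin1 library was above the highest DMSO library. Pik3r5, a regulatory subunit of PI3Kγ, rose by 0.93 ± 0.09 and Phlpp1, a phosphatase of AKT, by 0.76 ± 0.15, whereas Pik3cb, a catalytic subunit, fell by 0.82 ± 0.18.

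Of 29 FOXO targets tested, 18 rose and 1 fell (0 without DMSO replicate 1 or Torin1 replicate 3), with a median log2 fold change of 0.47, and 12 to 15 rose when any one library was left out. The naive and memory T cell list, which shares members such as Ccr7 and Klf2 with it, had 18 of 30 risen and 0 fallen, with a median of 0.31 and 15 to 17 risen without any one library. No member of the second list was lower even at an unadjusted p under 0.05, and DESeq2 and limma-voom likewise called 0 lower. Ccr7, the chemokine receptor for entry into lymph nodes, was at 693.7, 851.6 and 736.7 against 1611, 1603 and 1347 CPM (1.00 ± 0.11, adjusted p = 4.6e-06). Torin1 replicate 4 was the lowest of its group and still far above DMSO. Slamf6, a receptor of progenitor-like T cells, was at 7.34, 8.88 and 11.8 CPM in DMSO and at 23.3, 23.4 and 25.5 in Torin1 (1.36 ± 0.19). Myb, a factor of T cell self-renewal, rose by 0.84 ± 0.11. Klf2, a factor of T cell quiescence and trafficking, had 1.09 ± 0.32 (adjusted p = 0.018) but its adjusted p rose to 0.053, 0.052, 0.058 and 0.064 without DMSO replicate 1, DMSO replicate 3, Torin1 replicate 1 and Torin1 replicate 4. Tcf7, the factor TCF1, did not pass (0.11, adjusted p = 0.34).

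Promoters of the genes that rose were searched for the core of the forkhead motif. The window was 250 bases before to 50 after each RefSeq start, in build GRCm38.p6 (the counts were made on GRCm39), and 8887 of 12533 symbols tested had one. The letters TGTTTAC, or GTAAACA on the other strand, were present for 64 of 1243 genes that rose (5.15%, 95% Wilson interval 4.05 to 6.52), for 2.19% of genes that fell and for 3.06% of all genes tested, against 3.65% of all 32851 promoters. Only 1 of the 14 FOXO targets that rose and had a promoter held it in this window. Windows of 3 of the named genes that rose and held the motif are shown because they lie at the upper end of the response, with the motif in capitals and 5′ to 3′ on the strand of the gene. They are Tmem140 at chr6:34863000-34863066 (plus strand, motif 116 bases before the start), Emp1 at chr6:135362681-135362744 (plus, 223 bases) and Hbp1, a high mobility group box repressor of the cell cycle, at chr12:31950358-31950424 (minus, 149 bases).
Tmem140: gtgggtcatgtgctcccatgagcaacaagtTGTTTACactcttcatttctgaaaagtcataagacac
Emp1: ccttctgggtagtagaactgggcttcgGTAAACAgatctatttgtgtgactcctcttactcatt
Hbp1: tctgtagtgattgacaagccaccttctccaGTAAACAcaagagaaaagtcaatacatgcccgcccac
Hbp1 was at 15.0, 14.3 and 18.4 CPM in DMSO and at 46.2, 47.3 and 47.1 in Torin1 (1.56 ± 0.12, adjusted p = 1.1e-07). A match of letters is a description of the promoter and was not tested for binding.

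Effector genes did not move as one block. Interferon gamma (Ifng), the main effector cytokine of CD8+ T cells, was at 777.1, 802.9 and 874.3 CPM in DMSO and at 383.9, 301.6 and 328.9 in Torin1 (-1.27 ± 0.10, adjusted p = 1.3e-07). Lta, lymphotoxin alpha, was at 282.9, 393.5 and 315.2 against 193.8, 235.0 and 170.7 CPM (-0.73 ± 0.14). The chemokine Ccl5 went up, from 9.39, 6.07 and 11.5 to 27.4, 17.4 and 26.7 CPM (1.40 ± 0.21), and so did the growth factor Csf1 (1.53 ± 0.23). The groups were separate for each of these 4 genes. In the list of 17 cytokines and chemokines, 3 rose and 4 fell, and 7 fell without DMSO replicate 1. Among 17 cytotoxic granule genes 5 rose and 2 fell. Perforin (Prf1), the pore-forming protein, was at 216.3, 207.9 and 238.7 CPM in DMSO and at 133.3, 110.3 and 132.3 in Torin1 (-0.82 ± 0.09, adjusted p = 6e-06). Granzyme B (Gzmb), the protease delivered through those pores, was at 8309, 9495 and 8675 against 8348, 7843 and 6797 CPM, with overlapping groups and no call (-0.20, adjusted p = 0.14). Serpinb6b, a protease inhibitor of granule-bearing cells, rose by 0.85 ± 0.08 and Srgn, the granule proteoglycan serglycin, by 0.59 ± 0.09.

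Transcription factors of T cell differentiation changed in both directions, 11 of 33 rising and 7 falling. Tbx21 (T-bet), which drives Ifng and Prf1 in effector cells, was at 99.9, 85.7 and 91.5 CPM in DMSO and at 55.7, 44.3 and 56.5 in Torin1 (-0.82 ± 0.11). Irf8, an interferon regulatory factor induced on activation, was at 768.6, 783.8 and 836.9 against 416.6, 421.3 and 464.3 CPM (-0.88 ± 0.07, adjusted p = 1.3e-07). Neither factor showed overlap between groups. Nfatc2, a calcium-dependent activator, fell by 0.77 ± 0.08 on the log2 scale, and Irf2, an interferon regulatory factor, rose by 0.77 ± 0.11.

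Surface receptors that tune T cell activation rose more often than they fell. Of 27 inhibitory and costimulatory receptors 14 rose and 2 fell, with a median of 0.37. Leaving out any one library gave 12 to 14 risen and at most 1 fallen (0 without DMSO replicate 3). Cd28, the costimulatory receptor, was at 184.9, 207.6 and 199.9 CPM in DMSO and at 484.9, 463.8 and 414.3 in Torin1 (1.20 ± 0.09, adjusted p = 1.4e-07). The Torin1 libraries were all far above the DMSO libraries. Slamf1 (1.37 ± 0.12), Cd69 (0.89 ± 0.10), an early activation and tissue retention marker, and Icos (0.88 ± 0.12), a relative of Cd28, rose too. In T cell receptor signalling 8 of 35 genes rose and 9 fell. Those that rose included 3 that limit the signal: Dgka, a diacylglycerol kinase (0.84 ± 0.12), the phosphatase Ptpn22 (0.62 ± 0.07) and the ubiquitin ligase Cblb (0.58 ± 0.10). These 3 do not stand for the list, in which 9 members fell. Among the CD8 T cell markers, the kinase Lck was at 401, 354 and 412 plain CPM in DMSO and at 296, 278 and 336 in Torin1. The receptor chain Cd247 was at 122, 142 and 136 against 179, 171 and 168 plain CPM. Of 25 genes of the IL-2 receptor and STAT5, 9 rose and 5 fell (3 without Torin1 replicate 4), with the kinases Pim1 at 0.78 ± 0.07 and Pim2 at 0.61 ± 0.06. Immediate early genes split into 13 risen and 10 fallen of 38. Dusp6 (1.35 ± 0.17) and Spry1 (1.05 ± 0.10), feedback inhibitors of ERK signalling, rose. Fosl1, an AP-1 subunit, and Nfkbid, a nuclear IκB protein, fell by 1.12 ± 0.13 and 1.05 ± 0.09 on the log2 scale.

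Targets of the integrated stress response (ISR) fell in 22 of 36 members with Torin1. The ISR is the programme in which phosphorylated eIF2α raises translation of the factor ATF4, which then induces genes for amino acid supply and stress. Among these ATF4 targets 0 rose, with a median of -0.35, and 19 to 21 fell when any one library was left out. At an unadjusted p under 0.05 1 was higher, and DESeq2 and limma-voom called 0 higher. Chac1 (ENSMUSG00000027313.4), which degrades glutathione, was at 9.00, 8.03 and 7.73 CPM in DMSO and at 2.97, 2.90 and 1.38 in Torin1 (-1.77 ± 0.18, adjusted p = 2.4e-06). Trib3, a pseudokinase that feeds back on ATF4, was at 63.8, 46.9 and 55.1 against 20.1, 16.5 and 22.9 CPM (-1.48 ± 0.16, adjusted p = 3.2e-06). Cebpb, a bZIP partner of ATF4, was at 46.5, 39.8 and 46.6 against 21.1, 16.4 and 21.1 CPM (-1.18 ± 0.11). For each of these genes every Torin1 library was lower than every DMSO library. Jdp2, a bZIP repressor of AP-1, fell by 1.48 ± 0.17 on the log2 scale and Stc2, a secreted glycoprotein, by 0.84 ± 0.10. Atf4 itself was at 553.2, 556.5 and 562.7 CPM in DMSO and at 389.7, 375.7 and 352.1 in Torin1 (-0.58 ± 0.06, adjusted p = 2.9e-06). Not every target moved by a called amount: Asns, asparagine synthetase, had -0.23 (adjusted p = 0.1) and Ddit3, the factor CHOP, had -0.13 (adjusted p = 0.31).

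The promoters of the ISR targets that fell were searched for the composite CEBP-ATF letters TGATGCAA, or TTGCATCA on the other strand. In the 300-base RefSeq windows 4 of the 18 genes with a promoter (22.2%) held them, against 0.698% of all genes tested, 0.895% of all promoters, 1.06% of all genes that fell and 0.483% of those that rose. The list was assembled from reported ATF4 targets, so its share is a property of the list and not of the response. Chac1 and Jdp2 are shown because they fell most among those that hold the letters, which are in capitals. The Chac1 window is chr2:119351019-119351086 (GRCm38.p6, plus strand, 193 bases before the start) and the Jdp2 window chr12:85599353-85599415 (plus strand, 33 bases before the start).
Chac1: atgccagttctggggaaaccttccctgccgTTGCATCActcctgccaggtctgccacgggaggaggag
Jdp2: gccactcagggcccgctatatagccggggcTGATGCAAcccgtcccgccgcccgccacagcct

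Amino acid transporters and one-carbon enzymes fell more often than they rose. Of 21 amino acid transporters 7 fell and 0 rose. At an unadjusted p under 0.05 2 were higher, and DESeq2 and limma-voom called 0 higher, but 1 rose without DMSO replicate 3. Slc7a5, the large neutral amino acid exchanger that supplies leucine, was at 781.2, 906.8 and 772.6 CPM in DMSO and at 460.0, 503.2 and 442.0 in Torin1 (-0.81 ± 0.08, adjusted p = 2.1e-06), with no overlap. Slc6a9, a glycine transporter, and Slc1a4, a neutral amino acid transporter, fell by 0.93 ± 0.10 and 0.74 ± 0.11 on the log2 scale. Among 19 cytosolic aminoacyl-tRNA synthetases 5 rose and 7 fell. Without any one library only 1 to 3 rose, and 4 fell without DMSO replicate 1 or Torin1 replicate 3. Yars1 (-0.72 ± 0.10) and Aars1 (-0.63 ± 0.15), for tyrosine and alanine, fell, and Qars1, for glutamine, rose by 0.35 ± 0.07.

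Of 19 serine and one-carbon enzymes 8 fell and 1 rose. Mat2a, which makes S-adenosylmethionine, was at 222.6, 217.3 and 210.4 CPM in DMSO and at 102.9, 102.6 and 112.9 in Torin1 (-1.03 ± 0.07, adjusted p = 4.7e-08). Replicates of Mat2a were close and the groups did not overlap. Mat2b, the regulatory subunit of the same enzyme, rose by 0.38 ± 0.07, while Shmt1, which moves a carbon from serine to folate, and Slc25a32, the mitochondrial folate carrier, fell by 0.63 ± 0.11 and 0.72 ± 0.09 on the log2 scale. Polyamine genes fell in 5 of 11 and rose in 0 (1 higher at an unadjusted p under 0.05, 0 by DESeq2 or limma-voom, 1 without DMSO replicate 4 or Torin1 replicate 3), including Amd1 (-0.70 ± 0.07), which supplies the aminopropyl donor, spermidine synthase Srm (-0.65 ± 0.08) and Odc1 (-0.36 ± 0.06), the first enzyme of the pathway. Of 26 nucleotide synthesis genes 7 fell and 2 rose (1 without DMSO replicate 3 or Torin1 replicate 4). Rrm2, a subunit of ribonucleotide reductase, fell by 0.66 ± 0.07, and Ppat and Ctps1, which start purine synthesis and make CTP, each fell by 0.49 on the log2 scale.

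Glycolysis genes and targets of hypoxia-inducible factor (HIF) had 7 of 36 Ensembl entries (35 symbols) risen and 14 fallen, with a median of -0.16. Vegfa, the vascular growth factor, was at 78.2, 80.3 and 71.2 CPM in DMSO and at 38.1, 37.3 and 31.7 in Torin1 (-1.10 ± 0.09, adjusted p = 2.5e-07). Hk2, the inducible hexokinase, was at 197.1, 106.8 and 150.6 against 78.0, 62.6 and 103.7 CPM (-0.90 ± 0.21, adjusted p = 0.0038). Vegfa ranges were well apart, whereas for Hk2 the highest Torin1 library was just under the lowest DMSO library. Pfkfb3, which makes the activator of phosphofructokinase, fell by 0.61 ± 0.11. Ndrg1, a stress-responsive HIF target, rose by 0.81 ± 0.18.

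Lipid genes showed no common direction. In cholesterol synthesis 3 of 24 rose and 4 fell, and in fatty acid synthesis 3 of 20 rose and 3 fell, both lists with shares close to 13.3%. The cholesterol calls rested on single libraries: 1, 5 and 1 rose without DMSO replicate 1, DMSO replicate 3 and Torin1 replicate 3, and 0, 1 and 2 fell without DMSO replicate 3, Torin1 replicate 1 and Torin1 replicate 4. Mid1ip1, which activates acetyl-CoA carboxylase, fell by 0.77 ± 0.11, Acaca, that carboxylase, fell by 0.38 ± 0.10, and the elongase Elovl6 rose by 0.59 ± 0.11. Among 8 targets of the glucose sensor MondoA 3 rose and 2 fell, with Txnip, the thioredoxin-interacting protein, at 0.43 ± 0.08. In the MYC and MAX network 6 of 11 rose and 1 fell. Myc, the growth transcription factor, was at 292.9, 254.4 and 272.1 CPM in DMSO and at 368.9, 353.4 and 389.6 in Torin1 (0.44 ± 0.09, adjusted p = 0.0013), with separate groups. Its antagonists Mnt (0.87 ± 0.12), Mxd4 (0.73 ± 0.10) and Mxi1 (0.53 ± 0.08) rose as well.

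Genes for making ribosomes fell more often than they rose in total RNA. Of 71 ribosome biogenesis genes 28 fell and 3 rose, with a median of -0.24, and 23 to 36 fell without any one library (1 rose without Torin1 replicate 3). Ubtf, the factor that activates RNA polymerase I at the ribosomal DNA, was at 257.7, 183.8 and 221.6 CPM in DMSO and at 121.6, 108.3 and 134.8 in Torin1 (-0.86 ± 0.12, adjusted p = 4.1e-05). The groups did not overlap for Ubtf. Grwd1 (-0.76 ± 0.13), Rrs1 (-0.74 ± 0.09) and Bop1 (-0.64 ± 0.07), assembly factors of the large subunit, fell too. Ncl (nucleolin) did not pass the test (0.39), but it was called higher by limma-voom (0.45), with the replicate block and without DMSO replicate 1 (0.66).

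Ribosomal protein mRNAs rose in 20 of 85 members and fell in 0, with a median of 0.15. That count rested on single libraries: it was 7 without DMSO replicate 1, 12 without DMSO replicate 4, 3, 6 and 34 without Torin1 replicates 1, 3 and 4. No member was lower at an unadjusted p under 0.05 or by DESeq2 or limma-voom. Rpl7a, a large subunit protein, was at 2348, 2257 and 2459 CPM in DMSO and at 3211, 3174 and 2845 in Torin1 (0.39 ± 0.07, adjusted p = 0.0004), with separate groups. Rps6, the small subunit protein that the mTORC1 target S6 kinase phosphorylates, did not pass (0.15). Other mRNAs with a 5′ terminal oligopyrimidine (TOP) motif, the element that makes translation depend on mTORC1, rose in 13 of 21 and fell in 0 (8 without DMSO replicate 4, Torin1 replicate 1 or Torin1 replicate 3), with a median of 0.22. None was lower at an unadjusted p under 0.05 or by DESeq2 or limma-voom. Vim (vimentin) at 0.78 ± 0.08, Npm1 (nucleophosmin) at 0.37 ± 0.07 and Eef2 (elongation factor 2) at 0.37 ± 0.07 were among them. Ribosomal proteins have many pseudogenes of near-identical sequence, and how the counting shared such reads is not given in the sources used here.

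Host transcripts of small nucleolar RNAs rose in 9 of 19 Ensembl entries (18 symbols) and fell in 0, with a median of 0.33. At an unadjusted p under 0.05 0 were lower, and DESeq2 and limma-voom called 0 lower. Snhg1 rose by 0.83 ± 0.08 and Zfas1 by 0.60 ± 0.07. Both are processed, mostly noncoding host RNAs. Translation initiation factors split into 7 risen (4 without Torin1 replicate 1) and 9 fallen of 41. Eif4e3, a cap-binding relative of eIF4E, rose by 0.99 ± 0.09 and Paip2, an inhibitor of poly(A)-binding protein, by 0.75 ± 0.08, whereas Eif6, a large subunit factor, fell by 0.59 ± 0.11. Mitochondrial ribosomal proteins (4 of 76 rose and 9 fell, median -0.04) and nuclear-encoded subunits of oxidative phosphorylation (2 of 78 rose and 1 fell, median 0.01) had a smaller share of called members than the 26.7% of all genes. Mitochondrial ribosomal proteins rose in 2 members without any one DMSO library and in 1 without Torin1 replicate 1 or 3. Calls in oxidative phosphorylation ranged from 0 to 2 in each direction when any one library was left out.

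Ribosomal protein and other TOP mRNAs had medians below 0 in the polysome libraries of the same lysates. In polysome RNA 1037 of 12223 genes were higher with Torin1 (8.48%) and 1014 lower (8.3%), 16.8% together, by the same test. The number lower fell to 636, 578, 528 and 610 without DMSO replicate 1 and Torin1 replicates 1, 3 and 4, and the number higher to 675 and 652 without Torin1 replicates 1 and 3. Ribosomal proteins were lower in 66 of 85 members and higher in 0, with a median of -0.79, and other TOP mRNAs were lower in 10 and higher in 0, with a median of -0.41. Rpl7a was at 3788, 3648 and 3002 CPM in DMSO polysomes and at 1749, 1636 and 1785 in Torin1 polysomes (-1.01). Npm1 was at 3915, 4100 and 3295 against 2130, 2248 and 2049 CPM (-0.82). Thus both were above DMSO in all 3 total RNA libraries and below it in all 3 polysome libraries. The difference between the 2 fractions was not tested.

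Over all called genes the sign in polysomes was mostly that in total RNA, the same for 86.3% of genes that rose and 92.8% of genes that fell. Of the 1651 genes that rose in total RNA and were tested in polysome RNA, 767 (46.5%) were higher there and 52 lower, with a median of 0.52. Of 1670 that fell, 460 (27.5%) were lower and 0 higher, with a median of -0.33. All 15 genes at the upper end were higher in polysome RNA and 12 of the 15 at the lower end were lower. Each pair of libraries comes from 1 lysate, so these values are a second readout of the same cells.

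**Figure D4:**
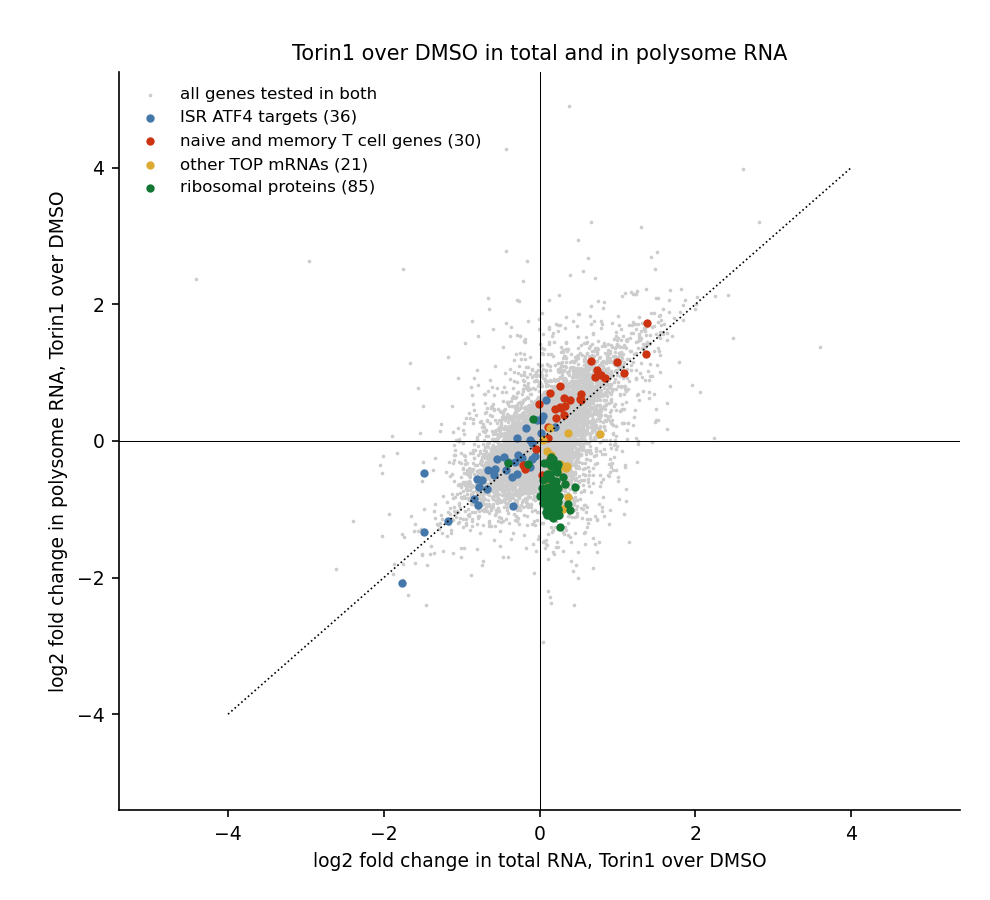
Log2 fold change (Torin1 over DMSO) in polysome RNA against that in total RNA for the members of 4 lists: 36 targets of the integrated stress response, 30 naive and memory T cell genes, 21 other TOP mRNAs and 85 ribosomal proteins, with all genes tested in both in grey and a dotted diagonal where both changes are equal. Most ribosomal proteins lie below the diagonal, with medians of 0.15 in total RNA and -0.79 in polysome RNA.

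Autophagy genes rose more often than they fell. Of 50 tested 16 rose (10 without Torin1 replicate 1) and 3 fell (0 or 1 without DMSO replicate 3, DMSO replicate 4 or Torin1 replicate 1), with a median of 0.10. Tecpr1, which acts in the fusion of autophagosomes with lysosomes, was at 56.0, 44.9 and 57.0 CPM in DMSO and at 109.0, 101.9 and 118.1 in Torin1 (1.06 ± 0.11, adjusted p = 2.2e-06). The groups were well apart for this gene. Atg2a, a lipid transfer protein of the growing membrane, rose by 0.87 ± 0.09, Atg14, a subunit of the autophagy PI3-kinase, by 0.80 ± 0.15, the cargo receptor Nbr1 by 0.77 ± 0.09 and Rb1cc1 (FIP200), part of the initiating kinase complex, by 0.73 ± 0.10.

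Of 59 lysosome genes 13 rose and 1 fell, with a median of 0.18 (0 fell without Torin1 replicate 4). The number that rose was 5 without DMSO replicate 1 and 6 without Torin1 replicate 1 or 3. Npc1, which exports cholesterol from lysosomes, was at 42.1, 59.4 and 45.7 CPM in DMSO and at 95.1, 104.8 and 87.6 in Torin1 (0.97 ± 0.14, adjusted p = 6.2e-05), with separate groups. Gla, alpha-galactosidase, rose by 0.71 ± 0.12. Lamp1, the main lysosomal membrane glycoprotein, did not pass (0.05). The letters GTCACGTG, or CACGTGAC on the other strand, are the core of the element bound by TFEB and contain the E-box CACGTG. They were in the promoters of 3 of the 11 lysosome genes that rose and had one (27.3%, 95% Wilson interval 9.75 to 56.6), in 5.63% of all genes that rose, 3.93% of those that fell, 5.12% of all genes tested and 2.25% of all promoters. CACGTG alone was in 11.7% of genes that rose, 13.0% of those that fell, 12.1% of all tested and 7.15% of all promoters. The windows of those 3 genes are shown with the 8 letters in capitals, 5′ to 3′ on the strand of the gene in GRCm38.p6. Ctsa (cathepsin A, log2 fold change 0.37) is at chr2:164833729-164833772 (plus), Gla at chrX:134601164-134601231 (minus) and Naglu (an enzyme of heparan sulfate breakdown, 0.39) at chr11:101069989-101070056 (plus), with the motif 14, 196 and 75 bases before the start. Ctsa and Naglu were chosen after their values were seen.
Ctsa: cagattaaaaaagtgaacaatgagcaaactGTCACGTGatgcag
Gla: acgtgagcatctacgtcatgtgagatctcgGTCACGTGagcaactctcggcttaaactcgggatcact
Naglu: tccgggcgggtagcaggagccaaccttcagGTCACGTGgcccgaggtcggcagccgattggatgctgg

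Proteasome subunits had 1 of 41 risen (0 without DMSO replicate 3, DMSO replicate 4, Torin1 replicate 3 or Torin1 replicate 4) and 7 fallen (4 without Torin1 replicate 1 or 3). Psme3, the nuclear proteasome activator, fell by 0.57 ± 0.07. In folding and stress of the endoplasmic reticulum 4 of 28 rose (2 without DMSO replicate 4, Torin1 replicate 1 or Torin1 replicate 3) and 5 fell (3 without Torin1 replicate 3 or 4), with Herpud1, a degradation factor that ATF4 and ATF6 induce, down by 0.59 ± 0.07 and Dnajb9, an XBP1 target, up by 0.78 ± 0.11. Heat shock chaperones had 4 of 31 risen and 6 fallen. Targets of the oxidative stress factor NRF2 had 2 of 16 risen (0 or 1 without any library but Torin1 replicate 4) and 6 fallen, and those that fell included, besides Hmox1 and Srxn1, the glutathione synthesis subunit Gclc and thioredoxin reductase Txnrd1, each by 0.74 on the log2 scale.

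Targets of p53 fell in 10 of 20 members and rose in 3, with a median of -0.28. Beside Cdkn1a, the nuclease Aen fell by 1.17 ± 0.08 and Phlda3, an inhibitor of AKT binding to membranes, by 1.15 ± 0.15. In contrast Trp53inp1, which promotes autophagy and death, rose by 1.17 ± 0.11 and the death receptor Fas by 0.81 ± 0.11. Trp53 itself did not pass (-0.06). In the BCL-2 family 2 of 13 rose and 4 fell, with the survival protein BCL-XL (Bcl2l1) at -0.68 ± 0.10 and Mcl1 at 0.30 ± 0.06.

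Genes of the G1 to S transition fell more often than they rose, and genes of mitosis the reverse. Among cyclins, cyclin-dependent kinase inhibitors and E2F genes 15 of 34 fell and 5 rose. Ccne1, the S phase cyclin E1, was at 75.4, 66.0 and 67.1 CPM in DMSO and at 35.2, 32.2 and 33.6 in Torin1 (-1.04 ± 0.09, adjusted p = 3.2e-07), with no overlap. Ccnd3 (cyclin D3), the phosphatase Cdc25a and Skp2, which degrades p27, fell by 0.72 ± 0.07, 0.77 ± 0.10 and 0.72 ± 0.11 on the log2 scale, and Cdkn1b, which encodes p27, rose by 0.66 ± 0.08 (chosen after its value was seen). Of 44 DNA replication genes 12 fell and 0 rose (11 to 15 fell without any one library). 1 was higher at an unadjusted p under 0.05, and DESeq2 and limma-voom called 0 higher, but 1 rose without Torin1 replicate 4. Fen1, the flap nuclease of Okazaki fragments, fell by 0.79 ± 0.13. Of 40 mitosis genes 16 rose (10 without DMSO replicate 4) and 1 fell (2 without DMSO replicate 3 or Torin1 replicate 4), with Cenpe, a kinetochore motor, at 0.78 ± 0.09 and Ndc80, which binds microtubules at the kinetochore, at 0.75 ± 0.14. Mki67, the proliferation marker, did not pass (0.06).

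Zinc finger genes with Zfp names, most of them putative transcription factors, rose in 64 of 312 and fell in 19, with a median of 0.15. The number that rose was 41 without DMSO replicate 4 and 42 without Torin1 replicate 3, and the number that fell was 11 and 12 without Torin1 replicates 1 and 3. Many of these genes belong to clusters of similar sequence. Zfp608 rose by 1.52 ± 0.22. Interferon-stimulated genes rose in 7 of 21 and fell in 0 (4 rose without DMSO replicate 1 or Torin1 replicate 1). By an unadjusted p under 0.05 2 were lower, and DESeq2 and limma-voom called 0 lower, but 1 fell without Torin1 replicate 1. Gbp2, a guanylate-binding protein of host defence, was at 105.3, 57.3 and 122.1 CPM in DMSO and at 299.3, 205.2 and 335.8 in Torin1 (1.56 ± 0.26). Replicate 3 was the lowest of both groups, and the groups did not overlap. Among 23 mRNA decay proteins 6 rose and 3 fell. The risers included Zc3h12d, an RNase that limits inflammatory mRNAs (1.12 ± 0.08), Btg1, which promotes deadenylation and T cell quiescence (0.88 ± 0.08), and Zfp36 (TTP), which binds AU-rich elements (0.83 ± 0.10).

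Torin1 was also set directly against the other drugs in the same fit. It differed from 4EGI-1 in 4678 genes (37.3% of those tested), 2247 higher (17.9%) and 2431 lower (19.4%). From halofuginone it differed in 2777 (22.2%), 1352 higher (10.8%) and 1425 lower (11.4%). Doses of the drugs are not given in the sources used here, so these are differences between the groups as treated. The 15 genes at each end had been picked by their values in the same Torin1 libraries. Only 0.279% of genes differed between halofuginone and DMSO. The next counts therefore follow in large part from that choice and are descriptions only. All 15 genes at the upper end were higher with Torin1 than with either drug. Against halofuginone the 15 at the lower end were all lower, and against 4EGI-1 12 were lower and 1 higher. Tnfrsf26 was 2.48 higher than with halofuginone and 3.26 higher than with 4EGI-1, on the log2 scale. Among called genes with at least 5 CPM in the higher group and no overlap, the largest decreases against halofuginone were ISR genes: Chac1 (-3.54), Trib3 (-2.43), Jdp2 (-1.91), Cebpb (-1.82), Sesn2 (-1.76) and Slc1a4 (-1.70). Against 4EGI-1, also among called genes with at least 5 CPM in the higher group and no overlap, the highest were the chemokine Ccl4 (3.50), Tnfrsf26, Emp1 (3.24) and Csf1 (3.02).

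The comparisons of each drug with DMSO share the 3 DMSO libraries, so their values are given side by side without an overlap. 4EGI-1 changed 3308 genes (26.4%, 14.1% higher and 12.3% lower) and halofuginone 35 (0.279%, 0.239% higher and 0.0399% lower). Ifng had -1.27 with Torin1, -1.53 with 4EGI-1 and 0.14 with halofuginone. Ccl4, another effector chemokine, had -0.34 (no call) with Torin1 and -3.84 with 4EGI-1. Mat2a had -1.03 with both Torin1 and 4EGI-1. The median of the 36 ISR targets was -0.35 with Torin1, 0.11 with 4EGI-1 and 0.41 with halofuginone.

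**Figure D5:**
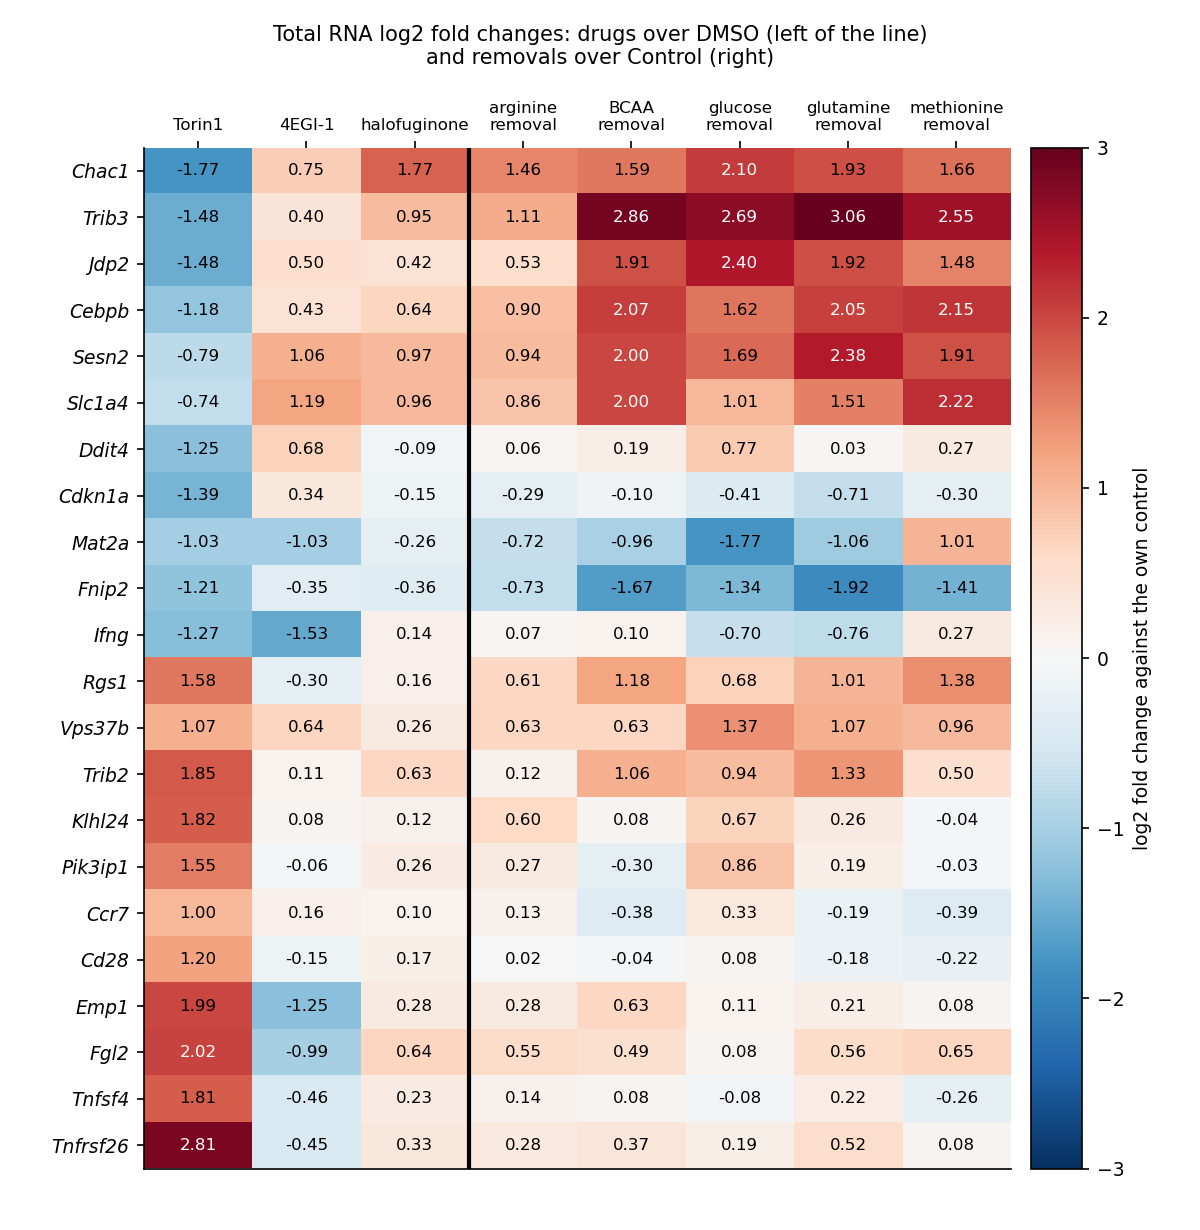
Log2 fold changes in total RNA of 22 named genes (rows) with Torin1, 4EGI-1 and halofuginone against DMSO and, right of the line, after removal of arginine, BCAA, glucose, glutamine or methionine against Control (columns), with blue for lower and red for higher values. Chac1 is at -1.77 with Torin1 and Tnfrsf26 at 2.81.

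The nutrient experiment has its own controls, so calls could be compared over the 12039 genes tested in both. Over all 12642 genes of that experiment, removal of arginine changed 9.24% (5.1% higher, 4.14% lower), of BCAA 30.1% (16.4% and 13.6%), of glucose 40.8% (21.8% and 19.0%), of glutamine 39.0% (20.4% and 18.6%) and of methionine 35.2% (19.5% and 15.7%). The genes that rose with Torin1 made up 13.7% of these and the genes that fell 13.8%. Glucose removal held the largest share of the Torin1 lists among the 5 removals. Of the genes that rose with Torin1, 716 also rose without glucose (43.4% of the Torin1 list and 26.3% of the glucose list), where 22.6% of all genes rose without glucose. Of the genes that fell, 758 fell in both (45.7% and 32.9%), against 19.2% of all genes. For arginine removal, with fewer calls, 306 rose in both (18.5% of the Torin1 list and 47.9% of the arginine list), against 5.31% of all genes, and 304 fell in both (18.3% and 58.6%), against 4.31%. For BCAA, glutamine and methionine removal 33.0 to 36.0% of the genes that rose with Torin1 rose and 34.4 to 34.9% of those that fell also fell. Opposite calls were fewer: 0.97 to 10.5% of the genes that rose with Torin1 fell in a removal, and 2.78 to 18.0% of those that fell rose in one. The labels call the nutrient libraries total RNA and the drug libraries polyA RNA, and the experiments were fitted apart, so these shares also carry differences of library type, which were not tested.

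The ISR targets had medians of opposite sign in the removals and with Torin1. The median of that list was 0.36 without arginine, 1.05 without BCAA, 0.60 without glucose, 1.02 without glutamine and 0.87 without methionine, against -0.35 with Torin1. Mat2a had 1.01 without methionine and -1.03 with Torin1. These differences in direction were not tested across the experiments. Of the 15 genes at the upper end 6 to 10 were higher in a given removal and at most 1 was lower. The share of all genes called differed between removals, so equal counts do not mean the same. Without arginine 9 of the 15 were higher, against 5.1% of all genes, and without glucose also 9, against 21.8%. Of the 15 at the lower end 4 to 8 were higher and 3 to 6 lower. Without arginine 4 were higher and 3 lower, against 5.1% and 4.14% of all genes. Without glutamine 6 were higher and 6 lower, against 20.4% and 18.6%.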

How the data were processed

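The authors deposited whole-number read counts per Ensembl gene without normalization. Per the submitters' processing notes, Trimmomatic, FastQC, MultiQC, STAR, HTSeq and edgeR were used with the mouse build GRCm39, with no versions. The strand setting of the counting is not given in the sources used here, so reads of overlapping and antisense genes cannot be told apart, and near-identical paralogs are uncertain. The table held 14695 genes, 14246 with a symbol, and no column lacked a sample. A further 18 monosome libraries of the labels were not analysed here.

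The 12 total RNA libraries of the drug experiment (DMSO, Torin1, 4EGI-1 and halofuginone) were fitted together in R 4.3.3 with edgeR 4.0.16: filterByExpr with a minimum count of 10, TMM scaling, glmQLFit and the quasi-likelihood F test of Torin1 minus DMSO, with p-values adjusted by Benjamini-Hochberg over 12535 genes and called at 0.05. The standard error is the size of the log2 fold change divided by the square root of F. CPM are counts scaled by the library total times its TMM factor, and sums over marker lists use the plain total. Polysome RNA of the drug experiment and total RNA of the nutrient experiment were fitted likewise. limma 3.58.1 (voom) and DESeq2 1.42.0 served as alternatives. On simulated counts with 200 changed genes among 12535, the script recovered 132, and 7.69% of its calls were false. That share is above the level a threshold of 0.05 aims for. The simulation changed far fewer genes than were called in the data, and by fixed amounts, so neither figure carries over to the data.

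The comparison, the 56 gene lists and the rules were chosen with earlier results of these data known. Named genes were the 15 at each end of the fold change (called, at least 5 CPM in the higher group, no overlap), up to 5 called members of each list by size and 2 uncalled ones by level, the 8 at each end of the direct tests against 4EGI-1 and halofuginone under the same filters, and the 8 with the lowest p in each direction. Promoters were RefSeq windows of GRCm38.p6, matched by symbol, and a gene counted once if any of its promoters held the letters on either strand. Wilson intervals cover counting error only. The depth was 17506526 to 21291474 counts per library.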

Additional observations from a re-analysis of the deposited data

Results flagged for a closer look

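In 10 of the named genes every Torin1 polysome library lay below every DMSO polysome library while all 3 Torin1 total RNA libraries lay above DMSO. The share of all genes with this pattern was not counted, and many named genes were picked from lists such as ribosomal proteins. The 10 can therefore not be called many or few. By the test, which is another rule, 52 of the 1651 genes that rose in total RNA and were tested in polysome RNA were lower there. Each of the 10 is given as the log2 fold change in polysome RNA and then in total RNA. Rps24 had -1.26 and 0.26, Rpl26 had -1.08 and 0.25, Rpl7a had -1.01 and 0.39, Rpl22l1 had -0.63 and 0.32, and Rpl10a had -0.53 and 0.29. All of these encode ribosomal proteins. Npm1, a nucleolar chaperone, had -0.82 and 0.37, and Cct4, a subunit of the chaperonin that folds actin and tubulin, had -0.41 and 0.39. Eif3l and Eif2a, initiation factors, had -0.40 and 0.34 and -0.24 and 0.50. Hnrnpa1, a splicing factor with a TOP mRNA, had -0.36 and 0.36. The difference between fractions was not tested. The total RNA calls of Rps24 and Rpl26 were lost without single libraries (Rps24 at adjusted p = 0.093, 0.1 and 0.1 and Rpl26 at 0.12, 0.09 and 0.13 without DMSO replicate 1, Torin1 replicate 1 and Torin1 replicate 3, by edgeR's quasi-likelihood test).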

How the results depend on the processing

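The count of called genes, 3343, was 3333 with RLE size factors, 3502 with DESeq2, 3259 with no filter, 3346 with a minimum count of 50, 3127 from the 6 DMSO and Torin1 libraries alone, 3306 with limma-voom and 3349 without mitochondrial and ribosomal RNA entries. Leaving out 1 library gave 2552 to 2985. With the replicate number as a block it was 3806 (6 libraries) and 4097 (12 libraries). The numbers were not taken to pair libraries, since the sources used here do not say what they mark. After group means were removed, same-numbered Torin1 and DMSO libraries correlated at 0.0132, 0.243 and 0.0574. Differently numbered ones correlated at -0.219 to 0.162, and these values do not settle whether libraries are paired. With the block 40 ribosome biogenesis and 20 DNA replication genes fell, against 28 and 12. Lysosome genes rose in 20, against 13, and naive and memory T cell genes in 19, against 18. Of 367 named genes 260 were called, 222 of them under every setting run, and 0 changed direction. Calls in polysome RNA (2051) were 1180 to 1740 without 1 library, 652 to 984 of them higher and 528 to 797 lower. With only the 250 bases before the start, CACGTG was in 9.98% of genes that rose and 10.8% of those that fell, and TGTTTAC in 3.94% of those that rose. With 3 libraries per group, small changes and low levels are the least certain.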

Other observations

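Several gene families that no list covered were counted after their values had been seen, so the counts are descriptions. The 3 neighbouring TNF receptor genes Tnfrsf22, Tnfrsf23 and Tnfrsf26 all rose (1.24, 2.42 and 2.81 on the log2 scale). Guanylate-binding proteins, interferon-induced GTPases, rose in 4 of 10: Gbp2 (1.56), Gbp3 (1.24), Gbp5 (1.60) and Gbp7 (1.09), whereas Gbp4 (0.16), Gbp6 (0.04), Gbp8 (0.22) and Gbp9 (0.08) did not pass. Gbp10 (0.55, adjusted p = 0.14) and Gbp11 (1.28, adjusted p = 0.062) did not pass either, although their groups did not overlap. Gimap genes, GTPases of lymphocyte survival, rose in 6 of 8, with Gimap3 at 0.77 and Gimap6 at 0.64, while Gimap5 did not pass (-0.03). Among Ypel genes 3 of 4 rose, Ypel5 by 1.37, Ypel2 by 1.31 and Ypel3 by 0.66. Other families had fewer risen members: Rgs genes rose in 3 of 10, with a median of 0.10, and Klhl genes rose in 3 of 23 and fell in 5, with a median of -0.06. In contrast, Ifi200 genes rose in 4 of 5, but at low levels. Mean CPM in DMSO and Torin1 were 0.177 and 1.12 for Ifi208 and 1.15 and 3.05 for Ifi206. They were 1.63 and 4.21 for Ifi209, whose groups overlapped, and 4.68 and 7.83 for Ifi203. Paralogs also parted: Trib2 rose by 1.85 and Trib3 had -1.48, and Btg1 rose by 0.88 where Btg2 had 0.00.

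Foxp3, the factor of regulatory CD4 T cells, was at 0.245, 0.0502 and 0.142 CPM in DMSO and at 0.972, 1.75 and 2.82 in Torin1 (3.60 ± 0.56, adjusted p = 0.00013 by edgeR's quasi-likelihood test, n = 3 libraries per group). It stayed under 3 CPM in each of the 6 libraries. DESeq2 gave it no adjusted p, and it was not tested at a minimum count of 50. Of the other CD4 T cell markers in the table, Ctla4 rose by 0.62 ± 0.09 and Zbtb7b fell by 0.81 ± 0.12.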
